A study of Mus musculus with 15 samples.

Results

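The complement system was described here through 9 genes: the C1q subunits C1qa, C1qb and C1qc, the components C2, C3, C4b and Cfb, and the anaphylatoxin receptors C3ar1 and C5ar1. They were taken by gene symbol from the 33340 gene rows of a raw count table, in which all 9 were present, and 8 of the 9 had enough counts to be tested. RNA was polyA-selected from whole lungs of C57BL/6 mice, which the study describes as males of at least 10 weeks of age. A single dose of 5 U/kg bleomycin, a DNA-damaging drug that injures and scars the lung, was given into the trachea, and lungs were collected at day 0 (4 libraries), day 7 (4), day 14 (4) and day 21 (3). Day 0 stood for untreated lung, and no vehicle-treated group at the later days entered these comparisons. The groups carried no genetic modification in the labels.

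Complement is a cascade of blood and tissue proteins that marks cells and debris for removal. C1q recognises antibody complexes, dying cells and other surfaces and starts the classical pathway, in which C4 and C2 form the enzyme that cuts C3. Factor B, made from Cfb, does the corresponding job in the alternative pathway. Cleavage of C3 and C5 releases the small peptides C3a and C5a, which act on myeloid cells through C3ar1 and C5ar1. The liver makes most circulating complement proteins, C1q is made mainly by macrophages and dendritic cells, and lung epithelium and fibroblasts can make C3 and C4 locally.

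Total counts per library ranged from 15652008 to 18020661, and 17457 genes were tested. The share of counts on 16 mitochondrial genes ranged from 2.03% to 4.22% and split the libraries. It was 2.03% to 2.15% in all 4 day 7 libraries, 2.28% and 2.31% in day 0 replicates 1 and 2, 4.22% and 4.05% in day 0 replicates 3 and 4, 2.102% in day 14 replicate 1 and 3.74% to 4.14% in the other 3 libraries of day 14. The day 21 libraries were at 4.01%, 3.19% and 2.66%. Comparisons within the lower (under 2.5%) and the higher (over 3.5%) share stand beside the results they touch, and none was made for day 21, where 2 of the 3 libraries lay between these limits. The title of day 0 replicate 4 calls it a control and its treatment label names bleomycin. It was kept in day 0. Alveolar type 2, airway and endothelial markers were present in every library. The 3 airway markers summed to 25190 to 32060 CPM at day 0 and 1436 to 5429 at day 21, with 1, 3 and 1 lower at days 7, 14 and 21. Of 4 endothelial markers, 0, 2 and 1 were lower, and of 5 alveolar type 2 markers, 0, 3 and 5. Their part in the falls of other complement genes was not tested. Hepatocyte markers (Alb, Apoa1, Ttr and Serpina1a) summed to 0.228 to 1.45 CPM. Replicates were separate samples by their titles, and nothing in the labels said that each was a separate animal, so p-values measure the spread between these samples. In whole lung, more RNA per cell and more cells of a type cannot be told apart.

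The 9 genes lay on 4 chromosomes of the GRCm38 assembly, all on the minus strand and all annotated as protein coding. The C1q genes sat side by side on chromosome 4: C1qb (ENSMUSG00000036905) at chr4:136880129-136886187, C1qc (ENSMUSG00000036896) at chr4:136889804-136893065 and C1qa (ENSMUSG00000036887) at chr4:136895917-136898803. C4b (ENSMUSG00000073418) at chr17:34728380-34743882, Cfb (ENSMUSG00000090231) at chr17:34856374-34862518 and C2 (ENSMUSG00000024371) at chr17:34862604-34898265 lay together in the major histocompatibility region, with C3 (ENSMUSG00000024164) at chr17:57203970-57228136. C3ar1 (ENSMUSG00000040552) was at chr6:122847138-122856161 and C5ar1 (ENSMUSG00000049130) at chr7:16246743-16259540.

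Promoter sequence from RefSeq (GRCm38.p6) was matched for 5 of the 9 members: C1qb, C1qc, C3ar1, C5ar1 and C3. The 250 bases before the RefSeq start are shown for 3 genes expressed mainly in myeloid cells and for C3, to set the promoters of genes that moved differently side by side. Capitals mark matches, on either strand, to a motif of the ETS/PU.1 family (AGGAAGT, read here as its complement ACTTCCT), a C/EBP motif (TTGCNNAA) or the NF-kB consensus. No marked matches overlapped.
C1qb, chr4:136886201-136886450, minus strand: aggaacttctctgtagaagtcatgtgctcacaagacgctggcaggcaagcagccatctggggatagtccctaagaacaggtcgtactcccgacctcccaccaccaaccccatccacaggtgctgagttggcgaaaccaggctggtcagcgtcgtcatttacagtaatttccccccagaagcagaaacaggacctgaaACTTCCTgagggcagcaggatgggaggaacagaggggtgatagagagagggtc
C1qc, chr4:136892915-136893164, minus strand: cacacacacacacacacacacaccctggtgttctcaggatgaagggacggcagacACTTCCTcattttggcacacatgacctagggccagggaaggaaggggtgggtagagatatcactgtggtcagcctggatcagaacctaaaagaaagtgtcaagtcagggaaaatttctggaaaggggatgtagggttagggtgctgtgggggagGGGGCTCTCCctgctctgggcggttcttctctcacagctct
C5ar1, chr7:16259339-16259588, minus strand: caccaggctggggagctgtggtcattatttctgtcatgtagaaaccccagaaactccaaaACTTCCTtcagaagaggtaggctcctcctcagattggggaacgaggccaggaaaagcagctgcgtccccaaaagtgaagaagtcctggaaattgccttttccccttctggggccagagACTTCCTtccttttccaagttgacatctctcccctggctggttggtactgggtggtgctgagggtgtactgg
C3, chr17:57228137-57228386, minus strand: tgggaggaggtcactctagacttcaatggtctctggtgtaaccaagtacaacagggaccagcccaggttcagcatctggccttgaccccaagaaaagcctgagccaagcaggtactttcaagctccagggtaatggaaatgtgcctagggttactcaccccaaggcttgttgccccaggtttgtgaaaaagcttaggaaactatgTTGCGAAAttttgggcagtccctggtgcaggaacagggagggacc

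The ETS/PU.1 letters stood in 3 of the 5 member promoters and in 9.35% of 32851 promoter windows of the same length. The windows searched, for members and background alike, held the 250 bases before each start and a shorter stretch after it. Counted from the start, the matches began at position -53 in C1qb, at -195 in C1qc, and at -190 and -72 in C5ar1. The C/EBP letters were found in C3 alone among the 5, at position -45, against 10.8% of all windows, and the NF-kB consensus in C1qc alone, at position -41, against 4.51%. The letters of the GAS element (TTCNNNGAA, in 8.3% of all windows) and of the ISRE core (in 3.44%) were in 0 of the 5. C3ar1 held none of the 5 motifs in this window. A match is a description of these letters: C1qb and C1qc, which rose, and C5ar1, which did not pass the test, all carried the ETS/PU.1 letters.

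Changes were tested with edgeR's quasi-likelihood test over all 17457 genes in 1 fit, and a change was called where the fold exceeded 1.5 and the p, adjusted after Benjamini and Hochberg, was under 0.05. At day 7, 6 of the 8 tested members were higher than at day 0, beside 8.78% of all tested genes, and 0 were lower, beside 7.36%. Both later days had 5 of the 8 higher, beside 12.0% of all tested genes at day 14 and 12.4% at day 21, and 0 lower, beside 11.2% and 10.1%. The C1q genes and C3ar1 had the larger increases, C4b and C3 moved less, and C2 and C5ar1 did not pass at any day. The median log2 fold change of the 8 was 1.59, 1.70 and 1.78 at days 7, 14 and 21, against 0.01, 0.02 and 0.02 over all tested genes. Every library stood above every day 0 library for 5 of the 9 members at each later day, beside 17.6%, 16.8% and 19.4% of all tested genes. These were C1qa, C1qb, C1qc and C3ar1, with C4b at days 7 and 21 and the untested Cfb at day 14. The 3 comparisons share the day 0 libraries.

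**Figure D1:**
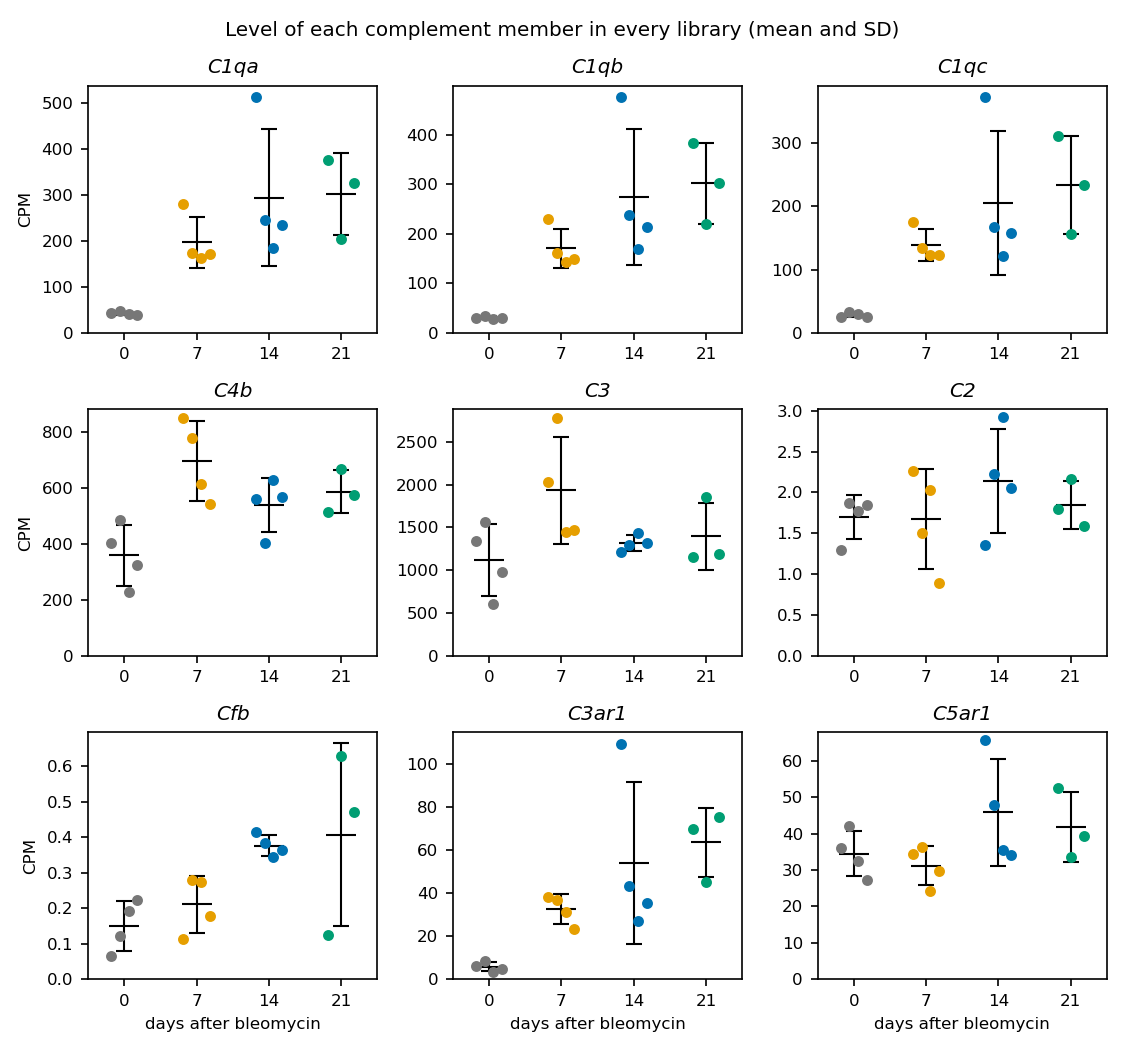
Level of each of the 9 members (CPM, counts relative to the TMM-scaled library size, on linear axes from 0 that each have their own range) against days after bleomycin. Points are libraries, and the bars show the mean and SD of 4, 4, 4 and 3 libraries. All later libraries sit above all day 0 libraries for C1qa, C1qb, C1qc and C3ar1, while the days overlap for C3, C2 and C5ar1.

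C1qa, C1qb and C1qc encode the chains of C1q, the recognition molecule of the classical pathway, and their transcripts rose together. Levels are given as CPM, the count relative to the library total after scaling by the trimmed mean of M values (TMM). C1qa was at 42.8, 46.7, 40.2 and 38.0 CPM in the 4 day 0 libraries, at 279.8, 174.4, 163.5 and 170.5 at day 7, at 514.3, 245.4, 184.7 and 233.8 at day 14, and at 377.4, 204.6 and 327.0 at day 21. Every later library was above every day 0 library, and day 14 replicate 1 was the highest of all. C1qb was at 30.4, 33.9, 26.7 and 29.8 CPM at day 0, at 229.1, 160.2, 142.6 and 148.3 at day 7, at 475.7, 237.1, 169.1 and 213.3 at day 14, and at 382.2, 218.7 and 302.9 at day 21. C1qc was at 24.9, 33.2, 28.8 and 25.0 CPM at day 0, at 175.2, 134.0, 122.6 and 123.0 at day 7, at 373.2, 166.8, 121.5 and 157.3 at day 14, and at 311.2, 155.7 and 234.5 at day 21. Both genes again showed no overlap between day 0 and any later day.

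Against day 0, the log2 fold change of C1qa at days 7, 14 and 21 was 2.23 ± 0.29 (SE, adjusted p = 0.000133), 2.81 ± 0.30 (7.89e-06) and 2.85 ± 0.31 (1.4e-05). C1qb rose by 2.49 ± 0.28 (adjusted p = 4.87e-05), 3.18 ± 0.29 (2.94e-06) and 3.32 ± 0.30 (4.61e-06), which was 5.64-fold, 9.07-fold and 9.98-fold. C1qc rose by 2.31 ± 0.30 (adjusted p = 0.000142), 2.87 ± 0.31 (9.48e-06) and 3.06 ± 0.32 (1.24e-05). Without day 14 replicate 1, the day 14 log2 changes were 2.38 for C1qa, 2.75 for C1qb and 2.39 for C1qc. All 9 calls stood in every alternative run. Within libraries of lower mitochondrial share, the day 7 change of C1qa was 2.12 ± 0.23 (4 against 2 libraries). The day 14 change was 2.49 ± 0.18 where the share was higher (3 against 2).

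Between the chains, C1qa and C1qc had the most similar profiles among the tested members, with a root-mean-square distance of 0.12 between their centred log2 CPM over 15 libraries. The fitted changes of C1qb were larger than those of C1qa. The ratio of C1qa to C1qb CPM was 1.39 ± 0.096 (SD, n = 4) at day 0, 1.15 ± 0.054 (n = 4) at day 7, 1.08 ± 0.028 (n = 4) at day 14 and 1.001 ± 0.073 (n = 3) at day 21. The lowest day 0 ratio, 1.28, was above the highest later ratio, 1.22. In an exact 2-sided permutation test of the log2 ratio the p was 0.0286 for days 7 and 14 and 0.0571 for day 21, each the smallest that these group sizes allow. Adjusted over the 9 ratio comparisons of the 3 chains, these were 0.0858, 0.0858 and 0.103, so none passed. This ratio was picked after its values had been seen. The C1qb to C1qc ratio was 1.09 ± 0.14 (SD, n = 4) at day 0, and 1.22 ± 0.063 (n = 4), 1.36 ± 0.063 (n = 4) and 1.31 ± 0.089 (n = 3) at the later days in turn, with exact permutation p of 0.229, 0.0286 and 0.0571 (adjusted 0.294, 0.0858 and 0.103). The C1qa to C1qc ratio was 1.51 ± 0.15 (n = 4) at day 0 and 1.40 ± 0.13, 1.46 ± 0.061 and 1.31 ± 0.091 later, with exact permutation p of 0.286, 0.686 and 0.114.

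C1q transcripts were set beside 10 macrophage and monocyte markers, since macrophages are a main source of C1q. Against day 0, 4, 6 and 4 of the 10 markers were higher at days 7, 14 and 21, and 0 were lower. Their summed level ranged over 7088 to 8208 CPM at day 0, 4135 to 7531 at day 7, 5673 to 9602 at day 14 and 4159 to 7321 at day 21, and no marker was at 0 in every library of a day. Lyz2, the lysozyme gene of myeloid cells that alveolar type 2 cells also express, made up most of this sum, at 6999 ± 537 CPM (SD, n = 4) at day 0. The other 9 markers summed to 473.7 to 588.6 CPM at day 0, 759.2 to 990.9 at day 7, 842.1 to 1753 at day 14 and 855.2 to 1451 at day 21.

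Per unit of all 10 markers, the summed C1q CPM was 0.0133 ± 0.0019 (SD, n = 4) at day 0 and 0.0847 ± 0.022 (n = 4), 0.109 ± 0.088 (n = 4) and 0.159 ± 0.053 (n = 3) at days 7, 14 and 21. Per unit of the 9 without Lyz2, the summed C1q CPM was 0.185 ± 0.017 (SD, n = 4) at day 0, 0.589 ± 0.068 (n = 4) at day 7, 0.623 ± 0.13 (n = 4) at day 14 and 0.713 ± 0.032 (n = 3) at day 21. The day 0 libraries reached at most 0.202 and the later ones were at least 0.474. Per CPM of Cd68, a lysosomal protein of macrophages, the ratio was 2.38 ± 0.54 at day 0 and 4.61 ± 0.13, 4.34 ± 1.6 and 5.31 ± 0.55 at the later days in turn. Per CPM of Adgre1, which encodes F4/80, it was 3.48 ± 0.70, 8.16 ± 0.89, 9.80 ± 0.94 and 11.3 ± 2.8. Per CPM of Fcgr1, the high-affinity IgG receptor, it was 16.02 ± 1.6, 29.7 ± 3.5, 27.0 ± 9.0 and 34.0 ± 12. For each of these denominators the lowest later library stood above the highest day 0 library. The planned denominator was the sum of all 10 markers, and the others were added to it. Cd68, Adgre1 and Fcgr1 each passed as higher at days 7, 14 and 21, while Lyz2, Mertk and Ccr2 passed at none of these. These ratios are descriptions, and the part of cell number in them was not tested.

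**Figure D2:**
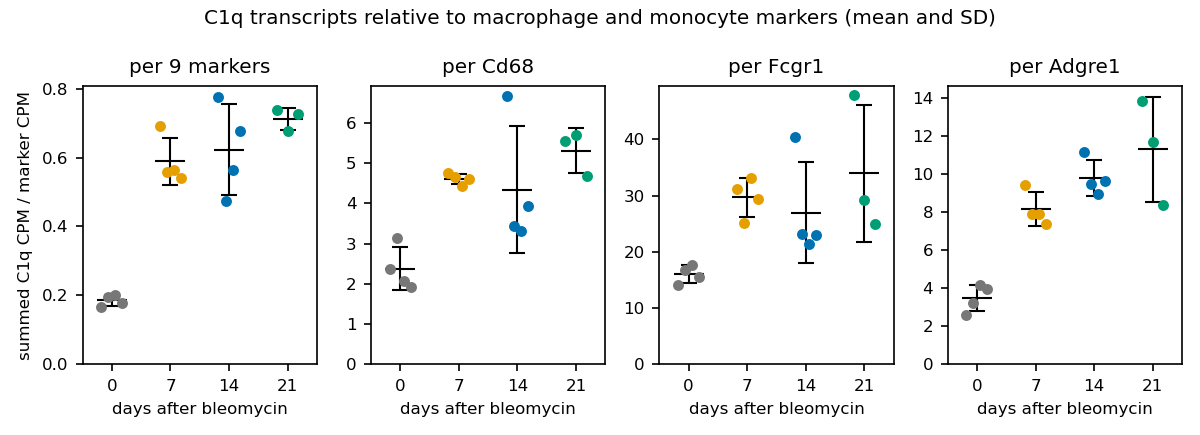
Summed CPM of C1qa, C1qb and C1qc divided by the CPM of macrophage and monocyte markers (the 9 without Lyz2, then Cd68, Fcgr1 and Adgre1), against days after bleomycin. Points are libraries, bars the mean and SD (n = 4, 4, 4 and 3), axes start at 0. The planned ratio to all 10 markers is not drawn. In each panel the 4 day 0 libraries lie below all later ones, as with 0.167 to 0.202 against at least 0.474 in the first.

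C4b encodes C4, which proteases of the classical pathway cut and which binds to targets through its thioester. The day 0 libraries held 400.8, 483.0, 226.9 and 324.9 CPM, those of day 7 held 848.5, 775.6, 613.4 and 541.5, those of day 14 held 558.7, 402.6, 626.8 and 567.6, and those of day 21 held 514.2, 666.0 and 574.5. All libraries of days 7 and 21 were above all of day 0, and 3 of the 4 at day 14 were. C4b was 1.94-fold higher at day 7 (log2 0.95 ± 0.21, adjusted p = 0.00528), 1.502-fold at day 14 (0.59 ± 0.21, 0.0439) and 1.63-fold at day 21 (0.70 ± 0.23, 0.0282). Of 6 fibroblast markers, 4 were higher at each later day, with a median log2 change of 1.57, 1.57 and 1.79. Their summed level was 1311 to 1989 CPM at day 0, 4825 to 6079 at day 7, 3588 to 13130 at day 14 and 4821 to 9451 at day 21, and their part in the C4b and C3 values was not tested.

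The C4b calls were not equally firm. The day 14 value lay at the fold threshold and lost its call in 11 of 17 alternatives. These included DESeq2 (0.57) and leaving out day 0 replicate 1 (0.62), 3 (0.40) or 4 (0.52) or day 14 replicate 1 (0.55), 3 (0.51) or 4 (0.56). Leaving out day 0 replicate 3 (0.51) or 4 (0.63), or day 21 replicate 2 (0.56) or 3 (0.68), ended the day 21 call, as did a fit of the 2 groups alone (0.68). The day 7 call was lost in 1 of 17 alternatives, the fit with mitochondrial share added (0.74 ± 0.23, adjusted p = 0.0587), and within libraries of lower share it was 0.64 ± 0.19 (adjusted p = 0.0448). C4b shared 35.2% of its 50-base windows with its neighbour C4a, and reads with several alignments had been left out. How many C4b reads this removed was not tested. C4a itself was at 0.659 to 2.63 CPM in all libraries.

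C3 encodes the central component of all complement pathways and was the member with the highest mean CPM at each day. It was at 1341, 1561, 606.6 and 975.5 CPM at day 0, at 2032, 2773, 1451 and 1471 at day 7, at 1215, 1294, 1438 and 1320 at day 14, and at 1159, 1852 and 1185 at day 21. At day 7, 2 of the 4 libraries were above all of day 0, and all 4 day 14 libraries fell within the day 0 range. C3 was higher at day 7 by a log2 change of 0.79 ± 0.27 (1.72-fold, adjusted p = 0.0443), while at days 14 and 21 the values were 0.23 ± 0.27 (adjusted p = 0.537) and 0.32 ± 0.29 (0.437).

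The day 7 call of C3 was lost in 9 of 17 alternatives. Among these, leaving out day 0 replicate 1, 3 or 4 gave 0.86 (adjusted p = 0.0532), 0.56 and 0.71, and leaving out day 7 replicate 1 or 2 gave 0.74 and 0.56. The day 0 libraries of lower mitochondrial share held 1341 and 1561 CPM and those of higher share 606.6 and 975.5 CPM. Within the lower share the day 7 change was 0.40 ± 0.26 (adjusted p = 0.303). The day 14 change inside the higher share was 0.76 ± 0.23 (adjusted p = 0.0539). C3 and C4b had similar profiles, with a root-mean-square distance of 0.24 on the log2 scale.

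C2 and Cfb encode the proteases that pair with C4 and C3 in the 2 convertases. C2 was at 1.30, 1.87, 1.78 and 1.84 CPM at day 0, at 2.27, 1.51, 2.03 and 0.892 at day 7, at 1.36, 2.23, 2.92 and 2.05 at day 14, and at 1.79, 2.17 and 1.59 at day 21, from 15 to 51 counts a library. The days overlapped, and the log2 changes against day 0 were -0.02 ± 0.31, 0.33 ± 0.31 and 0.12 ± 0.34 (adjusted p = 0.972, 0.439 and 0.817). Cfb had 1 to 11 counts a library and was not tested in the main comparison. It was at 0.065 to 0.223 CPM at day 0, 0.113 to 0.279 at day 7, 0.343 to 0.414 at day 14 and 0.124 to 0.627 at day 21. With no filter on low counts its log2 changes were 0.45 ± 0.70, 1.25 ± 0.67 and 1.36 ± 0.70, and none passed (adjusted p = 0.765, 0.252 and 0.242).

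These low levels have a limit in the annotation. Cfb shares 79.5% and C2 42.8% of its exon bases, on the same strand, with the readthrough gene Gm20547, which was not analysed here. A counter that drops reads falling on more than 1 gene would leave these out, and the part of this in the low counts of Cfb and C2 was not tested.

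C3ar1, the receptor for C3a on myeloid cells, had the largest fitted fold change of the members at day 21. The day 0 libraries held 6.02, 8.59, 3.49 and 4.80 CPM, the day 7 libraries 38.4, 36.9, 31.4 and 23.1, the day 14 libraries 109.4, 43.1, 27.2 and 35.4, and the day 21 libraries 69.8, 45.4 and 75.6. No later library reached down to the day 0 range. The log2 change was 2.5015 ± 0.40 at day 7 (adjusted p = 0.000554), 3.23 ± 0.40 (3.4e-05) a week later and 3.47 ± 0.42 (3.59e-05) at day 21, or 5.66-fold, 9.39-fold and 11.1-fold. Day 14 replicate 1 was more than all the others of that day, and without it the day 14 change was 2.60 ± 0.27 (adjusted p = 1.34e-05). The day 7 change was 1.84 ± 0.31 with the mitochondrial covariate (adjusted p = 0.00259) and 2.13 ± 0.24 within libraries of lower share (adjusted p = 0.00119), both still called.

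C5ar1, the receptor for C5a on neutrophils and macrophages, did not pass the test at any day. It was at 36.2, 42.2, 32.4 and 27.3 CPM at day 0, at 34.6, 36.5, 24.3 and 29.7 at day 7, at 65.8, 48.0, 35.6 and 34.2 at day 14, and at 52.5, 33.6 and 39.3 at day 21. Its values overlapped with day 0 at every later day, with log2 changes of -0.14 ± 0.21, 0.41 ± 0.21 and 0.28 ± 0.23 (adjusted p = 0.653, 0.147 and 0.387). Of 6 neutrophil markers, 4, 2 and 4 were lower at days 7, 14 and 21. Their summed level was 402.6 to 920.6 CPM at day 0, 97.5 to 276.8 at day 7, 137.5 to 466.5 at day 14 and 91.2 to 180.6 at day 21, and the part of this in the C5ar1 values was not tested.

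**Figure D3:**
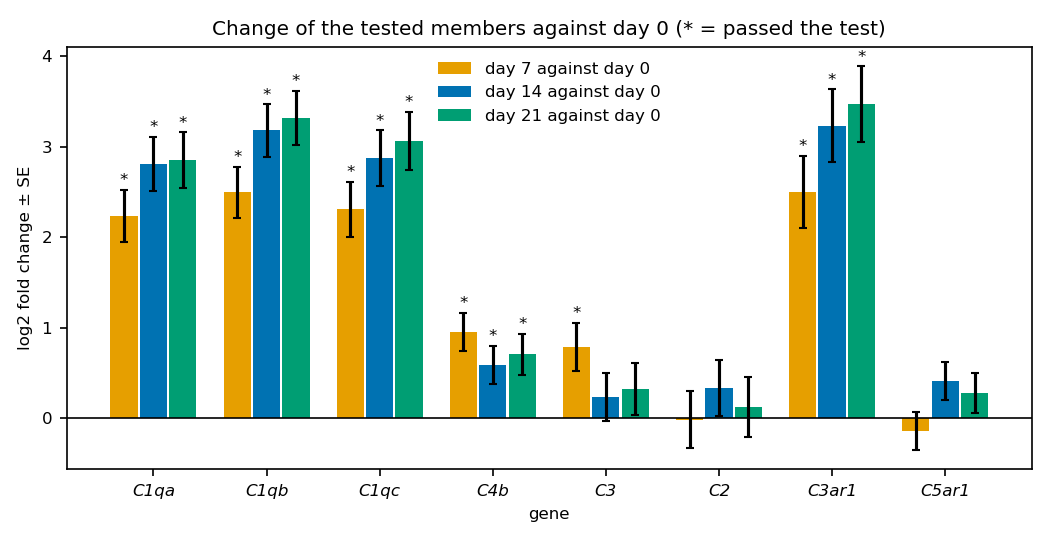
Log2 fold change of the 8 tested members against day 0 at days 7, 14 and 21, with bars for the fitted value, whiskers for 1 SE, and a star where the test was passed (edgeR, adjusted p under 0.05 and fold over 1.5). The C1q genes and C3ar1 stand at 2.23 to 3.47, while C4b and C3 stay at 0.95 or less and C2 and C5ar1 carry no star.

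No member passed in the 2 comparisons between later days that were run, day 14 against day 7 and day 21 against day 14. From day 7 to day 14, 0 of the 8 were called by edgeR or DESeq2, beside 6.0% of all tested genes called in either direction, and C1qb and C5ar1 had an unadjusted p under 0.05. From day 14 to day 21, 0 members were called by edgeR or DESeq2 and 0 had an unadjusted p under 0.05, beside 0 of 17457 genes called by edgeR and 106 by DESeq2. From day 7 to day 14 the C1q genes had log2 values of 0.56 to 0.69, C3ar1 0.73 ± 0.36 (adjusted p = 0.222), C5ar1 0.56 ± 0.21 (0.115), C3 -0.55 ± 0.27 (0.214) and C4b -0.37 ± 0.21 (0.298). With the mitochondrial share as a covariate, C3ar1 passed from day 7 to day 14 (1.41 ± 0.28, adjusted p = 0.0323). Without day 14 replicate 1, the C3ar1 value was 0.12 and that of C1qa 0.17.

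Levels of different genes were compared per kilobase of exon. At day 0 the order was C3 (217.9 ± 81.5 CPM per kilobase, SD), C4b (63.0 ± 19), C1qa (40.3 ± 3.6), C1qb (27.7 ± 2.7), C1qc (14.5 ± 2.0), C5ar1 (13.4 ± 2.4), C3ar1 (1.33 ± 0.50), C2 (0.438 ± 0.070) and Cfb (0.053 ± 0.025), all with n = 4. Neighbours in this order did not overlap, except C4b with C1qa and C1qc with C5ar1. The place of C1qc depends on the length used, the union of its exons (1931 bases). Per kilobase of its 1203-base transcript, a length chosen after seeing the data, C1qc was at 20.7 to 27.6 at day 0, which overlapped C1qb (24.5 to 31.1) and not C5ar1 (10.8 to 16.6). By day 14, C1qa (283.2 ± 143), C3 (256.0 ± 18) and C1qb (251.6 ± 126) overlapped in CPM per kilobase. The same 3 genes led at day 21, with C1qa at 291.3 ± 85.5, C1qb at 276.9 ± 75.1 and C3 at 272.0 ± 76.3 (n = 3). Per kilobase, C1qa was thus below C3 with no overlap at day 0 and could not be ordered against it at days 14 and 21.

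The genes with the most similar profiles over the 15 libraries were sought among all non-members with a mean of at least 5 CPM, by the distance used above. For C1qa, C1qb and C1qc the nearest was Col5a2, a chain of type V collagen, at 0.25, 0.25 and 0.23. Col5a2 itself was at a mean of 95.4 CPM at day 0 and 673.4 at day 14. Mmp14, a membrane-bound matrix protease, was next, at 0.25, 0.28 and 0.28. For C3ar1 the nearest were Fn1, fibronectin (0.29), Msr1, a macrophage scavenger receptor (0.32), and Col5a2 (0.33). C5ar1 lay nearest to Tlr6 (0.16), Alox5 (0.16) and Il17ra (0.21), C4b to Ccnd1 (0.16), C3 to Cdon (0.25) and C2 to Prss36 (0.23). The points share libraries and days, and the distances are descriptions.

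Of 43 other complement genes listed by role, 33 could be tested. Against day 0, 7 were higher and 3 lower at day 7, 6 higher and 6 lower at day 14, and 8 higher and 9 lower at day 21. Over all tested genes the shares higher and lower were 8.78% and 7.36%, 12.0% and 11.2%, and 12.4% and 10.1%. The median log2 change of the 33 was 0.27, -0.0070 and 0.18. Genes with calls lost in an alternative are named with that limit.

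Genes of both receptors and regulators passed the test. Of 7 other receptor genes, 2, 3 and 4 were higher at days 7, 14 and 21, beside 8.78%, 12.0% and 12.4% of all tested genes. Itgb2, the beta chain shared by complement receptors 3 and 4, rose at days 7, 14 and 21 by log2 changes of 0.66, 1.20 and 0.96, with the day 7 call lost in 4 of 17 alternatives: without day 0 replicate 4 (0.57) or day 7 replicate 1 (0.53), with the mitochondrial covariate (0.49) and within libraries of lower share (0.49). Its partner Itgam rose by 1.35 at day 14 and 1.11 at day 21, the latter lost without day 0 replicate 3 (1.03) or 4 (0.92) or day 21 replicate 1 (0.82) or 3 (0.98). Itgax, the other partner, rose by 1.30 at day 14. Its calls at day 7 (0.81) and day 21 (1.12) were lost in 7 and 1 alternatives, the latter without day 21 replicate 3 (0.50). At day 7 the value ranged down to 0.62, without day 7 replicate 1, with the call also lost without day 0 replicate 1, 2, 3 or 4 or day 7 replicate 3. Vsig4, a macrophage receptor for C3 fragments, was higher at day 21 (2.94), a call lost in 6 alternatives, each leaving out 1 library: day 0 replicate 1 (2.61), 3 (2.60) or 4 (2.65) or day 21 replicate 1 (2.33), 2 (3.09) or 3 (3.15). Without day 0 replicate 2 its value was 4.51. Cr2, a B cell receptor for C3 fragments, was lower at day 21 (-1.74), and the call was lost without day 0 replicate 1 (-1.54) or day 21 replicate 1 (-1.50) or 2 (-1.66). All 4 B cell markers were lower at that day, and the part of this was not tested.

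Among the 13 regulator genes, 12 were tested. Cfi, the protease that inactivates C3b and C4b, rose from a mean of 0.977 CPM at day 0 to 3.74, 5.05 and 6.87 at days 7, 14 and 21 (log2 1.93, 2.36 and 2.81, adjusted p = 0.000337, 2.58e-05 and 1.27e-05). Clu, clusterin, a soluble inhibitor of the terminal complex, rose from 258.2 to 607.2, 695.6 and 564.2 CPM (log2 1.23, 1.43 and 1.13). Vtn, vitronectin, fell to 4.43 CPM at day 14 from 13.1 at day 0 (log2 -1.57) and was at 5.33 at day 21 (-1.30). Cd46 was lower at day 7 (-1.33) and Cpn1, a carboxypeptidase that inactivates anaphylatoxins, at day 21 (-1.29). Adding the mitochondrial share to the fit ended the Cd46 call (-0.78). Cd59a (0.63 at day 21) and Cd55b (-1.39 at day 14 and -1.59 at day 21), surface inhibitors that each have a close paralog, lost their calls in 7, 5 and 4 alternatives. Cd59a was lost without day 0 replicate 1 (0.64), 3 (0.49) or 4 (0.60) or day 21 replicate 1 (0.46) or 2 (0.58). For Cd55b the day 14 call ended on leaving out day 0 replicate 1 (-1.21) or day 14 replicate 1 (-1.32) or 3 (-1.09). Its day 21 call ended on leaving out day 0 replicate 1 (-1.42) or day 21 replicate 2 (-1.69) or 3 (-1.46).

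Of the terminal pathway genes, which build the membrane attack complex, 4 were tested, and 0 were higher at any day and 1, 2 and 3 were lower at days 7, 14 and 21, beside 7.36%, 11.2% and 10.1% of all tested genes. C6 was at a mean of 59.8 CPM at day 0 and at 29.3 and 18.8 at days 14 and 21 (log2 -1.03 and -1.67). The day 0 mean of C7 was 366.3 CPM, and the later means were 502.3, 151.8 and 128.5 (log2 -1.27 and -1.51 for the last 2). Within libraries of higher mitochondrial share the day 14 value of C7 was -0.95 and no longer passed. Hc, which encodes C5, the source of the C5ar1 ligand, was at 653.2 ± 153 CPM (SD, n = 4) at day 0, 496.3 ± 240 (n = 4) at day 7, 345.0 ± 235 (n = 4) at day 14 and 80.4 ± 54 (n = 3) at day 21, and was lower at day 21 (log2 -3.02 ± 0.71, adjusted p = 0.00504). At day 21 all 5 alveolar type 2 markers were lower as well, with a summed level of 4220 to 8890 CPM against 25530 to 35470 at day 0, and their part in the Hc value was not tested. C8g was lower at day 7 (-1.29), a call lost with the mitochondrial covariate (-0.83) and within libraries of lower share (-0.84).

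Of 8 tested initiation genes, 2 were higher and 1 lower at day 7, 0 and 1 at day 14, and 1 and 1 at day 21. Among all tested genes, 8.78% were higher and 7.36% lower at day 7, 12.0% and 11.2% at day 14, and 12.4% and 10.1% at day 21. C1ra, the C1r protease that C1q activates and which has a close paralog, was higher at day 7 (log2 0.77 ± 0.11, adjusted p = 0.000288), and Colec12, a membrane collectin, was too (0.72), a call lost with the mitochondrial covariate (0.57). Mbl1, a mannose-binding lectin, was lower at all 3 days (-1.30, -1.81 and -2.63), from a mean of 2.69 CPM at day 0 to 0.427 at day 21. Its day 7 call was lost in 7 alternatives, among them leaving out day 0 replicate 3 (-1.39) or 4 (-1.05) or day 7 replicate 1 (-1.09), 2 (-1.29) or 4 (-1.35). Masp1, a lectin pathway protease, was higher at day 21 (1.72). Cfp, properdin, which stabilises the alternative pathway convertase, was higher at day 7 (0.64) and day 14 (0.71), the former lost without day 0 replicate 4 (0.54) or day 7 replicate 1 (0.53) and with the mitochondrial covariate (0.63).

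Cfd, factor D, an adipocyte product that cuts factor B, was at 0.583 to 30.4 CPM at day 0, at 0 to 0.362 CPM at day 14 (0 to 6 counts) and at 0 to 1.42 at day 21. The fitted log2 values of -6.51 and -5.19 passed but depend on how zeros are treated. At day 21 the call was lost without replicate 2 (-4.64) or 3 (-4.65), and without replicate 1, which held all the counts of that day, the value was -11.20. The 4 adipocyte markers summed to 18.8 to 25.0 CPM at day 0, 0.768 to 3.70 at day 14 and 0.969 to 2.41 at day 21, with 3 and 2 of them lower, and their part in the Cfd value was not tested.

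**Figure D4:**
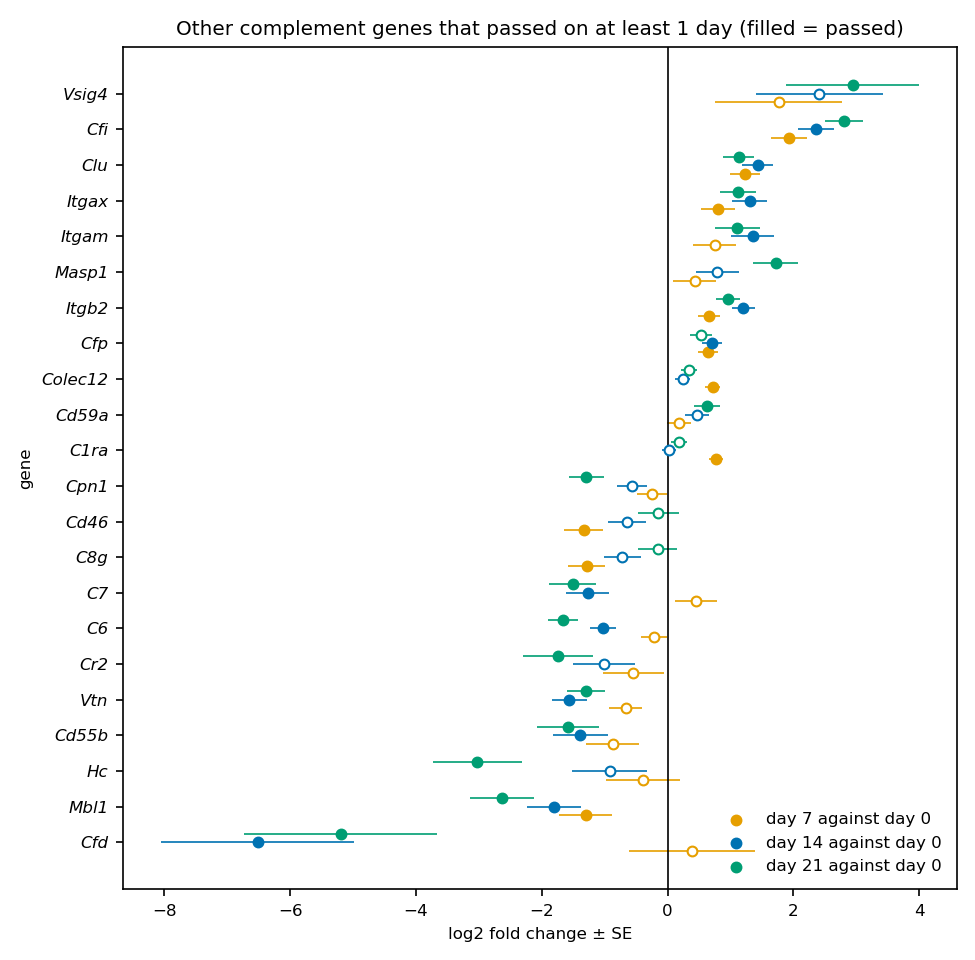
Log2 fold change against day 0 (x axis, with 1 SE) of the 22 other complement genes (y axis) that passed at 1 day or more. Filled points passed and open points did not, with 1 colour per day. Cfi and Clu lie to the right at all 3 days, and Mbl1 to the left at all 3.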

How the data were processed

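After trimming with TrimGalore, the authors aligned the reads to mm10 with HISAT2 2.1.0, left out reads with several alignments and counted reads per Ensembl gene with HTSeq 0.6.0. They deposited raw counts, with no normalization, from 150-base reads. The strand setting and annotation release are not given in the sources used here, and without strand, overlapping antisense genes cannot be told apart. Of the 33340 gene rows, 33267 matched GENCODE M21, the rest held 0.00889% of counts, and 450 had no count.

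Groups and replicate numbers came from titles. The series design text gives fewer replicates than the titles. Genes passing filterByExpr (17457) were tested with edgeR 4.0.16 (R 4.3.3): TMM factors, glmQLFit and glmQLFTest over all 15 libraries, day contrasts, Benjamini-Hochberg adjustment over all genes. The thresholds, adjusted p under 0.05 and fold over 1.5, follow the study. SE was the log2 change divided by the root of F. CPM used TMM-scaled library sizes, and log2 CPM a prior count of 2. Exon lengths and 50-base window sharing came from GENCODE M21. The script was tested on simulated data. Each library was counted as a sample by its title. Counts of the 21 pairs of libraries within a day differed by more than sampling noise, a check that can only find the same library sequenced again. Separate libraries from the same lung would not be detected, and pairs across days were not compared in this way.

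Alternatives were DESeq2 1.42.0, other scaling, no low-count filter, 2 groups alone, no fold threshold, a replicate block, the mitochondrial share (as a covariate, and within libraries under 2.5% or over 3.5%) and leaving out each of the 15 libraries. Named genes were the 9 members, the other listed complement genes that passed against day 0, marker genes beside a result, and the 3 nearest genes of each member. C1s1, Serping1 and C4a fall outside this rule and were named after their values were seen. The members and all gene lists were chosen with earlier results of these data known. A further complement gene is not reported here.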

Additional observations from a re-analysis of the deposited data

Results flagged for a closer look

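Among 102 groups of 4 libraries, 6 had a library that stood apart by Dixon's test, and chance gives about 5%. Day 7 replicate 1 held 279.8 CPM of C1qa and the other 3 libraries 163.5 to 174.4. For C2, day 0 replicate 1 stood at 1.295 CPM and the others at 1.778 to 1.874. For Masp1, day 0 replicate 3 stood at 0.762 CPM and the others at 1.10 to 1.15. Day 7 replicate 4 held 71.2 CPM of Cfd where the others held 2.49 to 12.7. Day 0 replicate 2 held 2.84 CPM of Vsig4 where the others held 0.254 to 0.391. The summed C1q CPM per CPM of all 10 macrophage and monocyte markers was 0.240 in day 14 replicate 1, against 0.058 to 0.073 in the other libraries of that day.

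For 6 of the 33 tested other complement genes, beside 6.0% of all tested genes called in either direction, the effect at day 14 differed from that at day 7, by the edgeR test of day 14 against day 7, and all 6 were lower at day 14. The log2 values were -0.75 for C1ra and -0.67 for C1s1, proteases of the classical pathway that each have a close paralog, and -0.62 for Serping1, which inhibits them. They were -0.81 for C6, -1.73 for C7 and -6.90 for Cfd, whose day 14 libraries held 0 to 6 counts. The day 7 libraries all had a mitochondrial share under 2.5% and 3 of the 4 day 14 libraries one over 3.5%. With that share as a covariate, C1s1 (-0.58), C6 (-0.83), C7 (-1.53) and Serping1 (-0.48) no longer passed. Leaving out 1 library ended the call of Serping1 (-0.52 without day 14 replicate 2), of Cfd (-5.03 without day 7 replicate 4, and -6.52 or -6.60 leaving out day 14 replicate 2 or 3) and of C6 (-0.83, -0.83 and -0.61 leaving out day 7 replicate 1, 3 or 4, and -0.85 or -0.81 leaving out day 14 replicate 2 or 3).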

How the results depend on the processing

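Over 640 log2 values of the tested members in the alternatives, 592 kept their direction and their side of the thresholds, 26 lost a call, 1 gained one and 21 changed sign. The alternative with no fold threshold kept the log2 values of the main fit, so it could only add calls. The calls of C1qa, C1qb, C1qc and C3ar1 against day 0 stood in every alternative. Leaving out 1 library gave 5 to 6 members changed at day 7, 4 to 5 at day 14 and 4 to 5 at day 21, and 0 between later days. With the mitochondrial share as a covariate, 4 members were changed at day 7, and 1 member, C3ar1, from day 7 to day 14. The other alternatives gave 5 to 6, 4 to 5 and 4 to 5 at days 7, 14 and 21.

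All values that changed sign were small and uncalled, and the cause was not tested. For C2 at day 7 they were 0.29 with the mitochondrial covariate and 0.062 within libraries of lower share, and from day 7 to day 14 -0.043 with the covariate. For C3 from day 14 to day 21 it was -0.027 with the replicate block. The others came from leaving out 1 library, which gave C2 a range of -0.22 to 0.19 at day 7 and -0.047 to 0.18 at day 21. From day 14 to day 21 it gave -0.16 to 0.44 for C1qa, -0.086 to 0.53 for C1qb, -0.085 to 0.64 for C1qc, -0.18 to 0.20 for C3, -0.0084 to 0.20 for C4b and -0.35 to 0.079 for C5ar1.

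With the replicate number as a block, 6, 5 and 5 members were changed against day 0, as without it, and C3 from day 14 to day 21 was at -0.027 in place of 0.087. The block was not read as a pairing. Deviations of same-numbered libraries had correlations of -0.24 to 0.40 (median 0.04, 21 pairs). Those of libraries with different numbers were -0.33 to 0.26 (median -0.03, 63 pairs). Their own number was the best match for 7 libraries, and the number that chance would give was not computed.

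The other complement genes changed at day 7 numbered 10 and ranged over 4 to 13, and those from day 7 to day 14 numbered 6 and ranged over 3 to 8. Over all genes, 2818 were changed at day 7 (1269 to 4365), 1048 from day 7 to day 14 (218 to 1641) and 0 from day 14 to day 21 (0 to 127). Counts were low for Cfb, at 1 to 11 a library, and C2, at 15 to 51, and the part of depth in this was not tested. Some called genes had few counts as well. Cd55b held 11 to 21 at day 0 and 4 to 6 at day 21, and Mbl1 held 2 to 10 at day 21. At day 0, Cfi held 10 to 23, Masp1 12 to 20 and Vsig4 4 to 47.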
